A study of Rattus norvegicus with 6 samples.

Results

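10 plasma membrane amino acid transport genes of the kidney, 8 carriers and 2 heavy chains, were followed in the renal cortex of rats given o-anthranilic acid. They were taken by name as 10 symbols, Slc6a19, Slc6a18, Slc3a1, Slc7a9, Slc7a13, Slc3a2, Slc7a7, Slc7a8, Slc7a5 and Slc16a10, and 15 of the 61526 usable array probes carried one of them. Of these probes 14 were well above background on at least 3 of the 6 arrays, so 9 of the 10 genes could be tested among 32859 features, and Slc7a5 could not. The animals were male Sprague-Dawley rats (Crl:CD(SD)) bought at 5 weeks of age. The 3 vehicle animals received corn oil and the 3 treated animals o-anthranilic acid at 1000 mg/kg/day, in both cases for 4 weeks on a basal diet. Total RNA from the cortex, where the glomeruli and much of the proximal tubule lie, was hybridised to 1 single-colour Agilent array per animal. o-Anthranilic acid is an aromatic amino acid, 2-aminobenzoic acid, and is formed in the body from tryptophan.

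The proximal tubule takes back nearly all filtered amino acids. Carriers in the brush border, the luminal membrane, bring them into the cell together with sodium or in exchange for other amino acids, and carriers in the basolateral membrane pass them on to the blood. Several of these carriers are pairs of a heavy chain, which brings the complex to the membrane, and a light chain, which transports. Loss of Slc6a19 function causes Hartnup disorder, loss of Slc3a1 or Slc7a9 causes cystinuria, and loss of Slc7a7 causes lysinuric protein intolerance.

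Values are given as normalised log2 signal, the log2 of a probe's processed signal minus the 75th percentile of that array, so a difference of 1 is a doubling. Between 63.7% and 69.3% of the probes were well above background on the 6 arrays, and the 75th percentile itself lay between 873 and 1010 in units of the scanner. Markers of the early proximal tubule were bright on every array: Slc34a1 (NM_013030), the phosphate carrier, ranged from 8.44 to 8.63 and Slc5a2 (NM_022590), the glucose carrier, from 7.41 to 7.64. Umod, a thick ascending limb marker, ranged from 8.13 to 8.90, Aqp2 of the collecting duct from 6.19 to 6.67, Slc12a3 of the distal tubule from 4.29 to 4.59 and Slc14a2 of the medulla from -3.19 to -2.77, so RNA of other nephron segments was present in the cortex samples. No probe of Slc12a1 could be named. In such bulk samples fewer cells of a type and less RNA per cell cannot be told apart.

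Whether any of these genes changed with o-anthranilic acid was tested first, and no member passed. limma with Benjamini-Hochberg adjustment over all features called 0 of the 9 tested members and 0 of 32859 features (0%), with a smallest adjusted p of 0.0846 over all features and 0.542 among the members. At an unadjusted p under 0.05 there was 1 member, Slc6a18, which had the higher mean in treated animals, against 8.21% of all features in either direction, that is 3.46% with the higher treated mean and 4.75% with the lower. No overlap between groups was seen for 1 of the 9 members, again Slc6a18, against 14.6% of all features (6.48% higher, 8.13% lower), so this share is close to the background. The log2 differences of the 9 members, treated minus vehicle, ran from -0.25 for Slc7a7 to 1.18 for Slc7a13, with 5 above 0 and 4 below and a median of 0.03. Over all features the median was -0.01 and 48.5% were above 0.

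**Figure D1:**
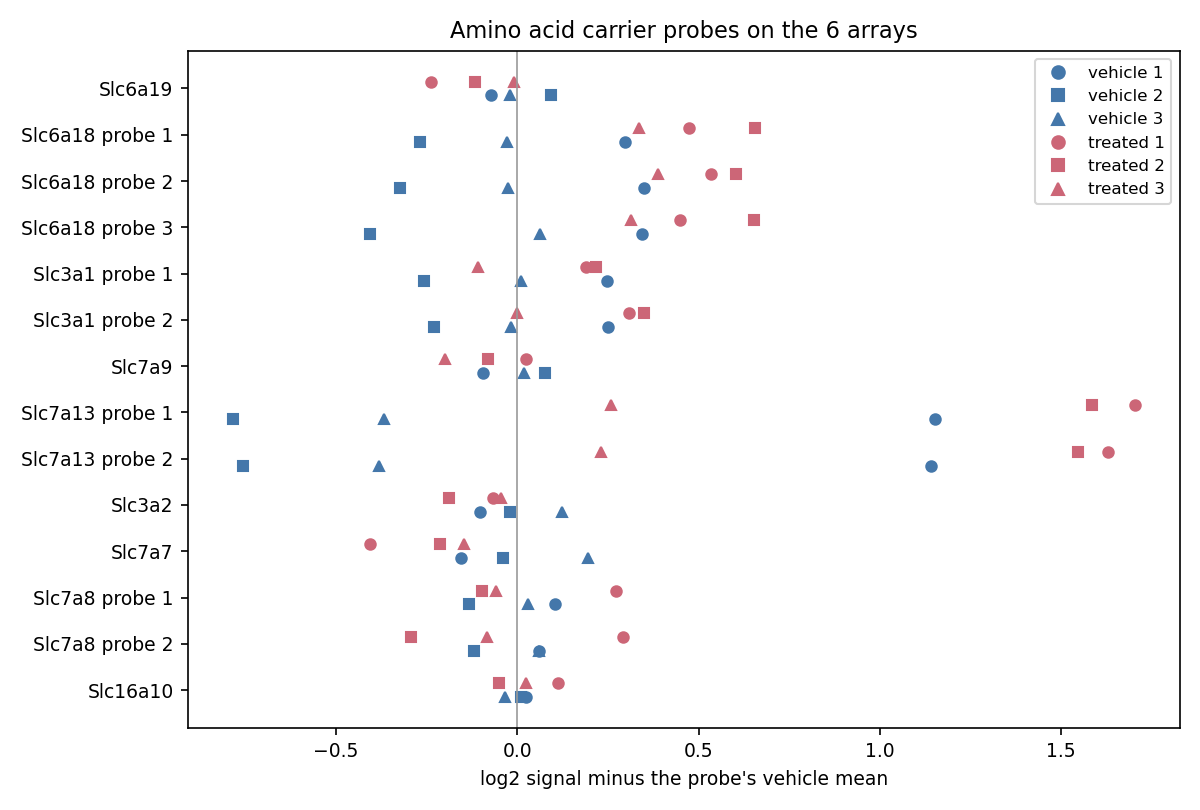
Normalised log2 signal of each of the 14 probes of 9 members that were above background, minus the mean of that probe's vehicle arrays (x axis), with vehicle animals in blue and treated animals in red and 1 symbol shape per replicate number. Both Slc7a13 probes spread over more than 2 log2 units, with vehicle replicate 1 above treated replicate 3, while the Slc6a19, Slc7a9, Slc3a2 and Slc16a10 probes each span at most 0.33.

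The luminal carriers of neutral amino acids are encoded by neighbouring genes. Slc6a19 (NM_001039722) encodes B0AT1, the main sodium-coupled carrier of neutral amino acids, tryptophan among them, in the early proximal tubule. Slc6a18 (NM_017163) encodes B0AT3, its relative in later parts of the proximal tubule. In RefSeq (build GRCr8) the pair lies on the same strand of chromosome 1, and the annotated starts are 21909 bases apart.

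Slc6a19 measured 3.37, 3.54 and 3.42 in vehicle rats and 3.21, 3.33 and 3.43 in treated rats. The groups overlapped, since treated replicate 3 lay above 2 of the vehicle animals. The means were 3.44 ± 0.09 (SD, n = 3) and 3.32 ± 0.11 (SD, n = 3), a log2 difference of -0.12 ± 0.09 (SE) with a 95% interval from -0.35 to 0.10 and a limma adjusted p of 0.751. It was -0.075 without vehicle replicate 2 and -0.064 without treated replicate 1.

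Slc6a18, measured by 3 probes, had the higher treated mean by each of them. On its brightest probe vehicle rats measured 4.69, 4.13 and 4.37 and treated rats 4.87, 5.05 and 4.73. All treated animals lay above all vehicle animals, by 0.038 between treated replicate 3 and vehicle replicate 1. The means were 4.40 ± 0.28 (SD, n = 3) and 4.89 ± 0.16 (SD, n = 3), a 1.40-fold higher treated mean, and the log2 difference of 0.49 ± 0.16 (SE) had a 95% interval from 0.09 to 0.89, an unadjusted limma p of 0.0244 and an adjusted p of 0.542. The other probes had log2 differences of 0.51 ± 0.18 and 0.47 ± 0.20 (SE) when each probe was tested as its own feature. The groups did not overlap on the second probe either, but on the third, vehicle replicate 1 at 1.83 was above treated replicate 3 at 1.80. Without vehicle replicate 1 the log2 difference was 0.64, without vehicle replicate 2 it was 0.35, and without treated replicate 2, the one array on a slide of its own, 0.40 (unadjusted p 0.0766, limma). None of these passed over all features, with limma adjusted p of 0.595, 0.591 and 0.705.

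Cystine and the dibasic amino acids enter from the lumen through the b0,+ system, which is the heavy chain rBAT, encoded by Slc3a1 (NM_017216), joined to the light chain b0,+AT, encoded by Slc7a9 (NM_053929). rBAT is also the partner of AGT1, encoded by Slc7a13 (NM_001012100), a carrier of aspartate, glutamate and cystine in the late, straight part of the proximal tubule.

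Slc3a1 measured 8.39, 7.89 and 8.16 in vehicle rats and 8.33, 8.36 and 8.04 in treated rats on its brightest probe. Vehicle replicate 1 was the highest animal and vehicle replicate 2 the lowest, so the groups overlapped, with a log2 difference of 0.10 ± 0.16 (SE), a 95% interval from -0.28 to 0.48 and a limma adjusted p of 0.893. This difference was -0.029 without vehicle replicate 2. The second probe gave 6.73, 6.25 and 6.46 against 6.78, 6.83 and 6.48, with a log2 difference of 0.22 ± 0.16 (SE), and ordered the vehicle animals in the same way.

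Its light chain Slc7a9 varied less. Vehicle rats measured 5.51, 5.68 and 5.62 and treated rats 5.63, 5.52 and 5.41. The groups overlapped, and the log2 difference of -0.09 ± 0.09 (SE) had a 95% interval from -0.31 to 0.14 and a limma adjusted p of 0.829. It lay between -0.14 (without treated replicate 1) and -0.029 (without treated replicate 3) when 1 array was left out.

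Slc7a13 had the largest log2 difference and the largest spread of the 9 tested members. Its brightest probe measured 6.35, 4.41 and 4.83 in vehicle rats and 6.90, 6.78 and 5.46 in treated rats. The groups overlapped: vehicle replicate 1 lay 0.89 above treated replicate 3, and vehicle replicate 2 was the lowest of all. The means were 5.20 ± 1.02 (SD, n = 3) and 6.38 ± 0.80 (SD, n = 3), a 2.27-fold higher treated mean. The log2 difference of 1.18 ± 0.61 (SE) had a 95% interval from -0.29 to 2.66 and a limma adjusted p of 0.666, so the interval included 0. The second probe, at 3.85, 1.95 and 2.33 against 4.34, 4.26 and 2.94, showed the same order of the 6 animals. The Slc7a13 log2 difference was 1.76 when vehicle replicate 1 was left out, 1.64 when treated replicate 3 was and 0.79 when vehicle replicate 2 was, with limma adjusted p of 0.595, 0.626 and 0.751.

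Slc22a7 (NM_053537), which encodes the organic anion carrier OAT2 and is a straight segment marker in the rat, measured -1.02, -3.14 and -2.40 in vehicle rats and -0.43, -0.27 and -1.71 in treated rats. It was again lowest in vehicle replicate 2, with vehicle replicate 1 above treated replicate 3. All 13 genes of the list for the straight segment were tested. None passed, and the median log2 difference was 0.17, with 8 above 0 and 5 below, against 48.5% above 0 over all features. The groups did not overlap for 1 of the 13, which had the higher treated mean, against 6.48% of all features. Slc22a7 and Slc22a24, at 1.38 ± 0.62 and 1.52 ± 0.58 (SE), are part of this list and of its mean. Among the 5 below 0 were Cyp4a2 and Slc13a3, bright genes with vehicle means of 9.10 and 8.74. Their log2 differences were -0.10 ± 0.09 and -0.01 ± 0.08 (SE). Relative to the vehicle mean, the list mean measured 0.32, -0.39 and 0.08 in vehicle rats and 0.40, 0.41 and 0.15 in treated rats. Its summed signal, in multiples of the array's 75th percentile, ranged from 1312 to 1935 in vehicle and from 1546 to 1755 in treated animals. The list for the early segment, all 12 genes tested, stayed between -0.04 and 0.03 on the 6 arrays, with sums from 1520 to 1603 and from 1524 to 1569. The part that differing amounts of straight segment RNA have in the Slc7a13, Slc6a18 and Slc3a1 values was not tested.

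**Figure D2:**
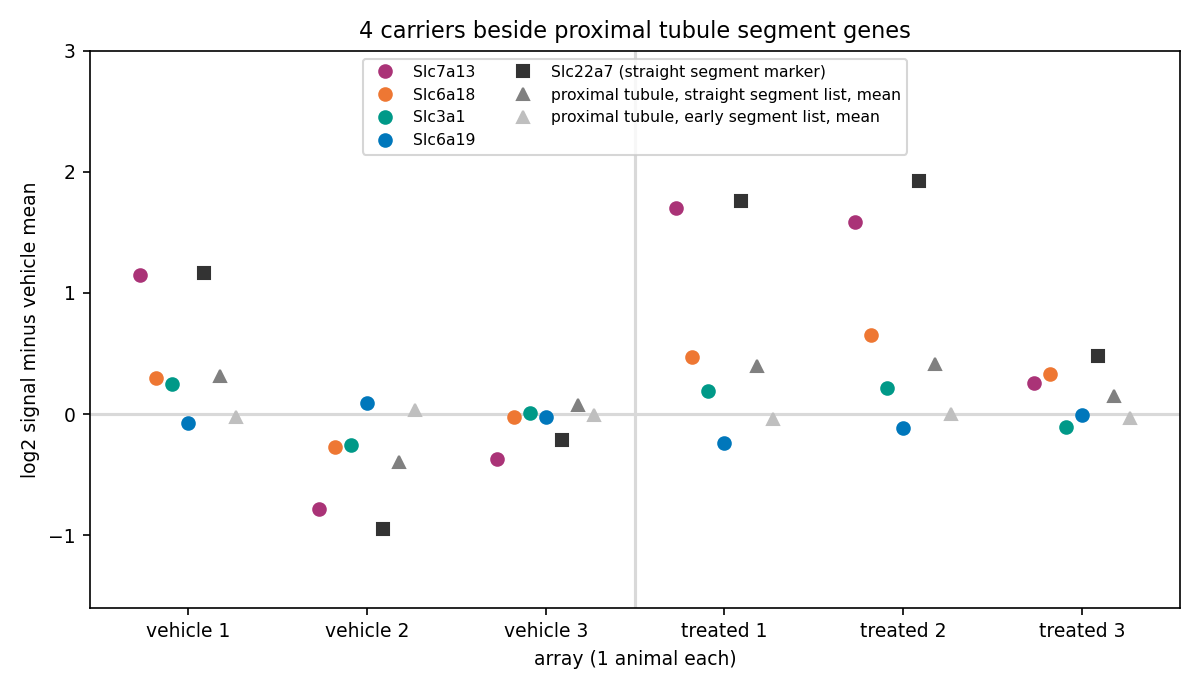
Normalised log2 signal minus the vehicle mean (y axis) on each of the 6 arrays (x axis) for Slc7a13, Slc6a18, Slc3a1 and Slc6a19 (circles, brightest probe), for the straight segment marker Slc22a7 (squares) and for the means of the straight and early proximal tubule gene lists (triangles). Slc7a13 and Slc22a7 are both high in vehicle replicate 1 and treated replicates 1 and 2 and lowest in vehicle replicate 2, while the early segment list stays between -0.04 and 0.03.

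Likeness over the 6 arrays was measured for the 2 of the 9 tested members with the largest SD, Slc7a13 (1.05 over the arrays) and Slc6a18 (0.34), as the root mean square difference of log2 values after each gene was centred on its own mean. Among 11904 other named genes, those closest to Slc7a13 were Slc22a7 at 0.16, Slc22a24 (NM_173302) at 0.18 and Slco1a6 (NM_130736) at 0.19. Slc22a7 and Slc22a24 were on the straight segment list. Those closest to Slc6a18 were Rasa3 (NM_031574) at 0.05, Ndc1 (NM_001025023) at 0.08 and Sdc1 (NM_013026) at 0.08. With so many genes and 6 arrays some close pairs are found by construction, and no test was made.

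On the basolateral side the heavy chain 4F2hc, encoded by Slc3a2 (NM_019283), carries several light chains. Slc3a2 measured 4.25, 4.33 and 4.48 in vehicle rats and 4.29, 4.16 and 4.31 in treated rats. The groups overlapped, and the log2 difference was -0.10 ± 0.09 (SE), with a 95% interval from -0.32 to 0.12 and a limma adjusted p of 0.790. It lay between -0.15 (without vehicle replicate 1) and -0.040 (without vehicle replicate 3) when 1 array was left out.

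The light chain y+LAT1, encoded by Slc7a7 (NM_031341), exports lysine and arginine in exchange for neutral amino acids and sodium. Slc7a7 had the lowest log2 difference of the tested members, with vehicle rats at 2.47, 2.59 and 2.82 and treated rats at 2.22, 2.41 and 2.48. Treated replicate 3 was above vehicle replicate 1 by 0.009, so the groups just overlapped. The means were 2.63 ± 0.18 (SD, n = 3) and 2.37 ± 0.13 (SD, n = 3), a 1.19-fold lower treated mean, and the log2 difference of -0.25 ± 0.12 (SE) had a 95% interval from -0.55 to 0.04 and a limma adjusted p of 0.651. Without vehicle replicate 3, its highest animal, it was -0.16.

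The light chain LAT2, encoded by Slc7a8 (NM_053442), exchanges neutral amino acids, aromatic ones included. Slc7a8 measured 5.28, 5.05 and 5.21 in vehicle rats and 5.45, 5.08 and 5.12 in treated rats on its brightest probe, and treated replicate 1 was the highest animal on both of its probes. The groups overlapped, and the log2 differences of the 2 probes were 0.04 ± 0.13 and -0.03 ± 0.16 (SE), so their signs differed. For the brightest probe the limma adjusted p was 0.958 and the value was -0.079 without treated replicate 1 and -0.029 without vehicle replicate 2.

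Slc7a5 (NM_017353) encodes LAT1, the light chain that proliferating cells and the blood-brain barrier use for large neutral amino acids. Its single probe was well above background on 1 vehicle array and on 0 treated arrays. Its processed signal was 10.3, 32.7 and 13.9 for vehicle rats and 23.1, 19.1 and 27.3 for treated rats, in units of the scanner, and replicate 2 was the vehicle array above background. No normalised log2 level and no fold change is given, since no treated signal and only that of vehicle replicate 2 was well above background.

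Aromatic amino acids, tryptophan included, leave the cell through the uniporter TAT1, encoded by Slc16a10 (NM_138831). Slc16a10 varied least of the tested members, with vehicle rats at 0.06, 0.05 and 0.00 and treated rats at 0.15, -0.01 and 0.06. The groups overlapped. The log2 difference of 0.03 ± 0.08 (SE) had a 95% interval from -0.16 to 0.21 and a limma adjusted p of 0.942, and it was -0.014 without treated replicate 1.

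Among other amino acid and peptide carriers, taken from a list of 35 genes, 25 were tested and none passed over all features. At an unadjusted limma p under 0.05 there were 5 with a higher treated mean and 1 with a lower one, and the groups did not overlap for 5 higher (Slc38a3, Slc7a12, Slc1a1, Slc6a6 and Slc36a1) and 2 lower, Slc15a1 among them. Over all features, 8.21% were at such a p (3.46% higher, 4.75% lower) and 14.6% had groups without overlap (6.48% higher, 8.13% lower). Slc36a1 was dim, with a vehicle mean of -3.38, and its log2 difference was 0.14 ± 0.08 (SE). The median log2 difference was -0.01, the same as over all features. Of the 25 tested, 11 had a log2 difference above 0. The 5 of them at an unadjusted limma p under 0.05 were Slc38a3, Slc7a12, Slc1a1, Slc6a6 and Slc15a2.

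Slc38a3 (NM_145776) encodes SNAT3, the basolateral glutamine carrier that feeds ammonia formation. It measured -0.38, -1.17 and -0.87 in vehicle rats and 0.54, 0.42 and -0.06 in treated rats. All treated animals were above all vehicle animals, with a 2.16-fold higher mean, a log2 difference of 1.11 ± 0.25 (SE) and a limma adjusted p of 0.454. As for Slc7a13, vehicle replicate 2 was its lowest animal and vehicle replicate 1 and treated replicate 3 lay nearest to the other group. The log2 difference ranged from 0.93 to 1.32 when 1 array was left out.

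Slc7a12 (NM_001011948) encodes Asc-2, a light chain for small neutral amino acids. It measured 0.31, -0.50 and -0.64 in vehicle rats and 1.70, 1.40 and 0.33 in treated rats. The groups were separated by 0.018 between vehicle replicate 1 and treated replicate 3, with a log2 difference of 1.42 ± 0.42 (SE) and a limma adjusted p of 0.512. Slc1a1 (NM_013032), which encodes the luminal carrier of aspartate and glutamate, showed another order of animals. It measured 2.90, 3.18 and 3.22 in vehicle rats and 3.39, 3.47 and 3.56 in treated rats, so vehicle replicate 1 was its lowest animal. Its log2 difference was 0.37 ± 0.11 (SE) with a limma adjusted p of 0.512.

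Slc6a6 (NM_017206), the taurine carrier, and Slc15a2 (NM_031672), a luminal carrier of di- and tripeptides, had log2 differences of 0.22 ± 0.07 and 0.77 ± 0.30 (SE). Slc15a1 (NM_057121), the other peptide carrier of the brush border, measured 2.63, 2.58 and 2.73 in vehicle rats and 2.56, 2.30 and 2.37 in treated rats. The groups were separated by 0.014, with a log2 difference of -0.24 ± 0.10 (SE) and a limma adjusted p of 0.608, and it was -0.077 when the probes of the gene were averaged. Slc43a3 (NM_001107743), of a family that includes amino acid carriers, had a log2 difference of -0.35 ± 0.19 (SE), or -0.16 with its probes averaged. Slc6a20a (NM_133296), the imino acid carrier, had a log2 difference of 0.00 ± 0.10 (SE). Of the rest of the list, Slc1a2, Slc1a4, Slc6a15, Slc7a2, Slc7a11, Slc36a2 and Slc38a4 were too dim to test, and Slc7a1, Slc38a10 and Slc66a1 had no named probe.

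**Figure D3:**
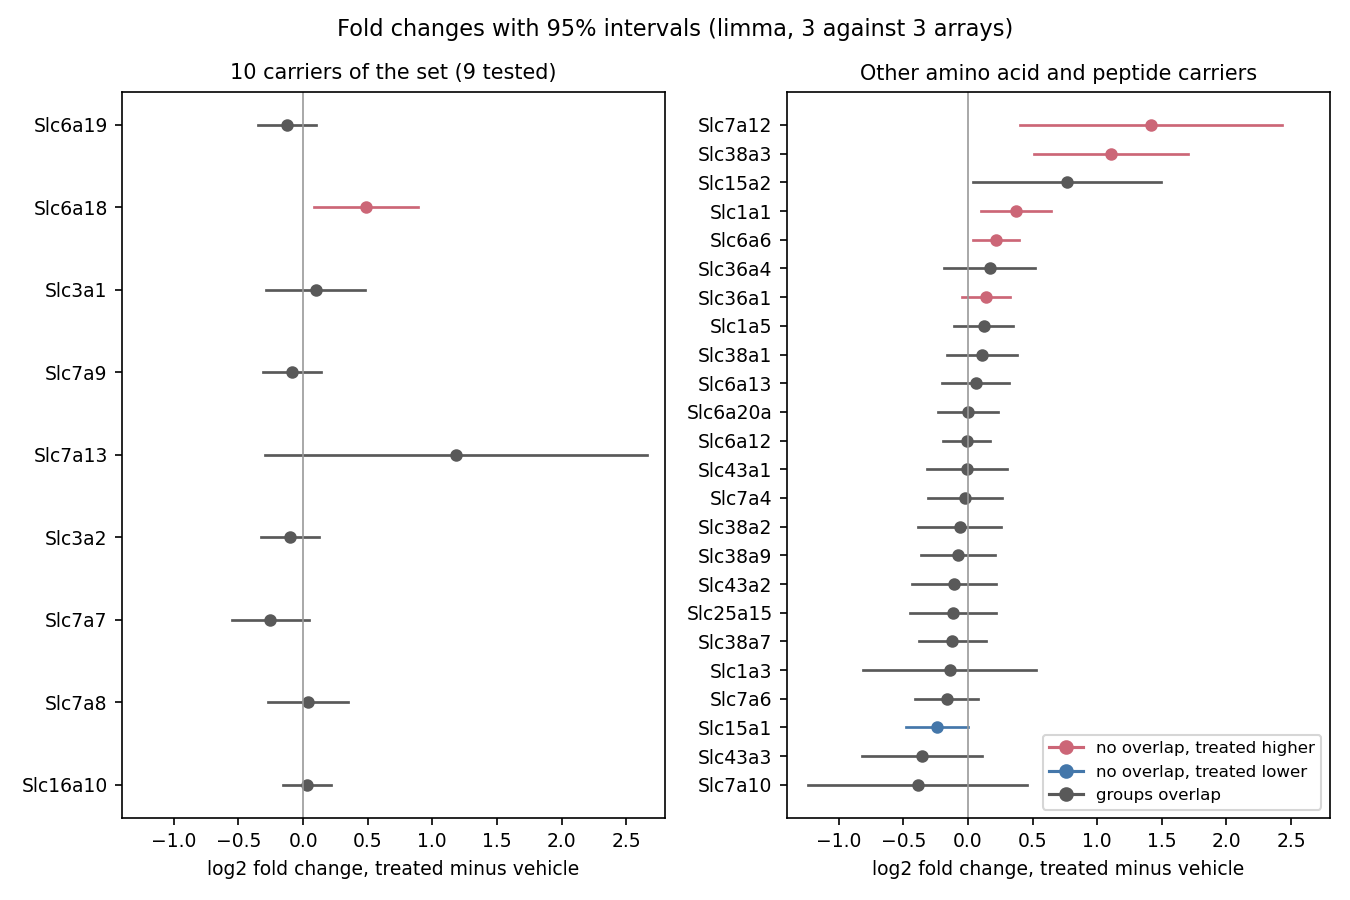
Log2 fold changes, treated minus vehicle (x axis), with their 95% intervals from limma (bars) for the 9 tested genes of the set (left) and for other amino acid and peptide carriers that are reported here (right). Red marks genes whose treated values all lie above the vehicle values, blue those whose treated values all lie below, and grey those whose groups overlap. On the left Slc6a18 is the 1 gene without overlap and Slc7a13 has the widest interval, from -0.29 to 2.66.

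The luminal carriers B0AT1 and B0AT3 need a partner for their place in the brush border, which in the kidney is collectrin, encoded by Cltrn (NM_020976). Cltrn measured 7.75, 7.81 and 7.86 in vehicle rats and 7.63, 7.69 and 7.55 in treated rats. All treated animals were below all vehicle animals, by 0.051 at the closest, with a log2 difference of -0.18 ± 0.08 (SE) and a limma adjusted p of 0.614, and it was -0.10 with normexp background correction and quantile normalization. Of 6 tested partners and regulators 0 passed over all features. Hnf4a, a transcription factor of proximal tubule genes, and the kinase Sgk1, which acts on several carriers, had log2 differences of -0.06 ± 0.13 and -0.87 ± 0.37 (SE), and that of Sgk1 was -0.49 without treated replicate 2.

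Brush border peptidases release the amino acids that these carriers take up. None of 11 tested peptidase genes passed. The median log2 difference was 0.09, with 8 of the 11 above 0, against 48.5% of all features. The groups did not overlap for 1 of the 11, which had the higher treated mean, against 6.48% of all features. Dpep1 (NM_053591), a dipeptidase, measured 2.96, 2.83 and 2.98 in vehicle rats and 3.14, 3.64 and 4.16 in treated rats, without overlap and with a log2 difference of 0.72 ± 0.25 (SE) and a limma adjusted p of 0.549. Without treated replicate 3 the Dpep1 value was 0.46. Mep1b (NM_013183), a meprin subunit, stood at 4.65, 2.65 and 3.61 and at 4.70, 4.67 and 3.86, so it too was lowest in vehicle replicate 2, with vehicle replicate 1 above treated replicate 3. Its log2 difference was 0.77 ± 0.52 (SE), 1.28 without vehicle replicate 1 and 0.28 without vehicle replicate 2. Ggt1, gamma-glutamyl transferase and also on the straight segment list, had a log2 difference of 0.34 ± 0.24 (SE), 0.57 without vehicle replicate 1 and 0.12 without vehicle replicate 2. Cpm, Xpnpep2 and Anpep, further peptidases, had -0.18, -0.12 and -0.05.

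Slc3a2 and Slc7a5 are also known targets of Atf4, the factor that cells use when amino acids run short. Of 21 tested genes of the amino acid response, a list without any of the 10 members but with 2 of the other tested carriers, Slc1a5 and Slc38a2, none passed over all features. The median log2 difference was -0.11, with 16 below 0 and 5 above, against 48.5% above 0 over all features. The groups did not overlap for 7 lower and 1 higher, against 8.13% and 6.48% of all features. Atf4 (NM_024403) measured 4.92, 4.73 and 4.91 in vehicle rats and 4.49, 4.50 and 4.57 in treated rats, with a log2 difference of -0.33 ± 0.08 (SE) and a limma adjusted p of 0.483. Psat1 (NM_198738), an enzyme of serine synthesis, stood at 5.87, 5.88 and 5.81 and at 5.60, 5.63 and 5.56, with a log2 difference of -0.26 ± 0.07 (SE) and a limma adjusted p of 0.484, or -0.14 with its probes averaged. Sesn2, a leucine sensor, had a log2 difference of -0.28 ± 0.09 (SE). Trib3, a pseudokinase, the glutamine carrier Slc1a5 and Eif4ebp1, a repressor of translation, had log2 differences of 0.33 ± 0.09, 0.12 ± 0.09 and 0.14 ± 0.15 (SE), and that of Trib3 was 0.13 with normexp background correction and quantile normalization. Slc3a2 itself, at -0.10, lay near the median of this list.

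Markers of other cell types also differed between animals. The lymphocyte list, 10 genes tested, stood at -0.55, 0.44 and 0.11 on the treated arrays relative to the vehicle mean and between -0.09 and 0.07 on the vehicle arrays, with summed signals from 1.75 to 2.76 in treated and from 1.94 to 2.43 in vehicle animals. The erythrocyte list, 6 genes tested, stood at 0.15, 0.34 and 0.59 on the treated arrays and between -0.12 and 0.07 on the vehicle arrays. Its sums ranged from 807 to 992 in treated and from 625 to 833 in vehicle animals. The median log2 difference of this list was 0.36, with 6 above 0 and 0 below, against 48.5% above 0 over all features. At an unadjusted limma p under 0.05 there were 3 higher, against 3.46% of all features, and 0 passed the threshold. Slc4a1 is on this list and on that for the distal tubule and collecting duct. The thick ascending limb list, 7 of 8 genes tested, had sums from 327 to 531 in vehicle and from 377 to 471 in treated animals, and the medulla list, 6 of 7 tested, from 7.52 to 9.31 and from 7.46 to 8.89. The lists for the distal tubule and collecting duct, podocytes, endothelium, fibroblasts and vascular smooth muscle, and macrophages had median log2 differences of -0.06, -0.10, -0.11, 0.10 and -0.17, with 0 genes past the threshold in any of them. The part of these cells in the carrier values was not tested.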

How the data were processed

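Renal cortex RNA of 6 rats, 3 per group, was measured with 1 Cy3 array each. The submitters' processing notes name Agilent Feature Extraction 10.7. Each deposited file from the scanner gives the intensity of every spot, background-subtracted and detrended within the array but not normalised between arrays, per the file headers. Values in the authors' deposited table are a ratio and matched processed signals over the 75th percentile of the array to within 0.026 on the log2 scale. Its column medians were 0.104, 0.106 and 0.103 for vehicle and 0.106, 0.104 and 0.103 for treated samples. Its column for each replicate number matched the scanner file of another number in the same group, so replicate numbers here are those of the scanner files and which numbering holds is unknown. Vehicle replicates and treated replicates 1 and 3 shared 1 slide and scan, and treated replicate 2 was on another. On the shared slide the vehicle arrays lay in row 1 and the treated arrays in row 2, per the file headers, so row and group cannot be told apart there. The labels call the samples biological replicates.

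Of 61657 non-control probes, 84 external control probes and 47 flagged as outliers were dropped, and no spot used was saturated. Probes were named through RefSeq accessions (27435 of 61526, build GRCr8, with older symbols Slc6a20 and Slc22a19 read as Slc6a20a and Slc22a24). The array design names another build, rn4, so no gene coordinates of probes are given. Log2 processed signals minus each array's 75th percentile were kept where 3 or more arrays of 6 showed the probe well above background. Each named gene was represented by its brightest kept probe and each unnamed probe stood alone. The group difference was fitted in R 4.3.3 by limma 3.58.1 (lmFit and eBayes, Benjamini-Hochberg over all 32859 features, threshold 0.05); statmod 1.5.0, data.table (version 1.17.8) and jsonlite 2.0.0 were also used. The fit was tested on simulated data. The number of arrays limits the precision: the median standard error was 0.11. The members and gene lists were chosen with earlier results of these data known.

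Named genes were all members with every probe, the 3 with the lowest p per direction in the lists of other carriers, partners, peptidases and amino acid response, the fixed segment markers, and the 3 nearest genes by likeness (a few genes these rules name are not reported here); Slc6a6, Slc15a2, Slc36a1, Slc38a2 and Slc6a20a were added after their values were seen. Alternatives were normexp background correction with quantile normalization (offset 50, on median spot signals, as the files used hold no mean signal), quantile normalization alone, median scaling, the deposited values, a percentile taken only over probes detected on 6 arrays, no filter or a filter of 6 arrays, averaged probes, single probes, a trended and robust variance, array weights, the replicate number and the slide as a block, and each array left out.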

Additional observations from a re-analysis of the deposited data

How the results depend on the processing

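No member and no other carrier passed the threshold over all features under any of the 19 other settings, and the median log2 difference of the members ranged from 0.00 to 0.07 over 13 settings and from -0.06 to 0.04 without 1 array. The features past the threshold numbered 5 with normexp background correction and quantile normalization, 5 under a trended, robust variance fit, 3 with the slide as a block, 2 when probes of a gene were averaged and 1 with the filter of all 6 arrays, and from 0 to 3 without 1 array. Of features at an unadjusted p under 0.05, 42.2% were higher, against 52.4% with no filter on dim probes.

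The replicate numbers showed no broad pairing of the animals. Deviations of same-numbered animals correlated at 0.02, -0.05 and -0.02, and those of differently numbered animals at -0.07 to 0.09. A pairing that touches few genes cannot be seen in such correlations. With the replicate block 0 features passed. Each block holds a vehicle and a treated array, so the log2 differences are the same as without it by design. That sameness carries no information on pairing.

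For the gene values of members and named pathway genes, direction reversed for 6 genes when single arrays were left out, and the second Slc7a8 probe, tested by itself, stood at -0.029. Over the fits without 1 array, Slc3a1 ranged from -0.029 to 0.22, Slc7a8 from -0.079 to 0.11, Slc16a10 from -0.014 to 0.068, Hnf4a from -0.16 to 0.062 (0.004 without treated replicate 1), Anpep from -0.22 to 0.22 (0.054 without vehicle replicate 1) and Eif4ebp1 from -0.037 to 0.23. Cpm ranged from -0.28 to -0.090, Xpnpep2 from -0.19 to -0.031, Slc43a3 from -0.54 to -0.21, Slc1a5 from 0.053 to 0.17, Slc7a13 from 0.79 to 1.76 and Slc6a18 from 0.35 to 0.64. With 3 arrays a group, the 95% interval of Slc7a13 included 0.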
